A study of Neotoma stephensi and Rattus norvegicus with 6 samples.

Results

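The core circadian clock genes were examined in foregut tissue of Stephens' woodrats (Neotoma stephensi) and lab rats (Rattus norvegicus). The 10 genes are Arntl, Clock, Npas2, Per1, Per2, Per3, Cry1, Cry2, Nr1d2 and Dbp, chosen by gene symbol, and all 10 were among the 15481 genes of the deposited files and the 12603 genes tested. The tissue was the fornix ventricularis, the nonglandular upper stomach, from 3 females of each species, and PolyA RNA was sequenced. The woodrats came from the wild, received juniper foliage after capture and spent 1 night at the laboratory before sampling. The lab rats were Sprague Dawley animals from a supplier, kept for months on standard rat chow in a room that also housed woodrats. All animals are labelled virgin, although for the woodrats the study's methods call this unknown. Species, diet, housing and wild or laboratory origin therefore changed together and cannot be told apart. The hour of dissection is not given in the sources used here for either species.

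The clock is a feedback loop of transcription. ARNTL (also called BMAL1) pairs with CLOCK or NPAS2 and activates genes that carry E-box elements, among them the Per, Cry and Nr1d genes and Dbp. The PER and CRY proteins then inhibit that activator, and the REV-ERB proteins (NR1D1 and NR1D2) repress Arntl, Clock and Npas2. In peripheral tissues of rodents, Arntl and Npas2 transcripts therefore peak at nearly the opposite time of day from Nr1d1, Dbp and the Per genes, Cry1 peaks later than the Per genes, and Clock itself cycles weakly. Animals taken at different phases of this cycle would have the activator and repressor arms displaced in opposite directions, and the comparison of the arms asks whether the species differed in that way.

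Each animal had between 5439642 and 7932637 counted reads. Values are read counts scaled to a common library size (CPM) after TMM normalization, which adjusts libraries for composition, and 3 reads corresponded to between 0.355 and 0.586 CPM. The species were compared by the quasi-likelihood test of edgeR with Benjamini-Hochberg adjustment over all tested genes, and genes with a false discovery rate (FDR) below 0.01 were called. A positive log2 fold change means a higher level in woodrats. At this threshold, 20.0% of all tested genes were called (10.3% higher and 9.71% lower in woodrats), and at an FDR below 0.05 it was 39.9% (21.0% and 18.9%). With 3 animals of each species, an exact permutation test of a single gene cannot give a p below 0.1. Markers were set beside the labelled nonglandular, squamous tissue. The 10 suprabasal squamous markers in the files summed to between 23172 and 65678 CPM in woodrats and between 76359 and 95361 CPM in lab rats, without overlap, and 1 of them was called higher and 1 lower in woodrats. The 4 glandular stomach markers in the files summed to between 6.74 and 9.77 CPM per animal. Of the 2 that were tested, Muc5ac was called higher in woodrats (edgeR FDR = 0.0031) and Atp4a was not called. Muc5ac had 17, 12 and 33 reads in woodrats and 0 in every lab rat. Libraries of the species also differed in cell type markers. Of the 11 smooth muscle markers in the files, 3 were called higher and 0 lower in woodrats, with a summed level from 50436 to 151300 CPM in woodrats and from 15163 to 29250 CPM in lab rats. All 4 tested leukocyte markers were called lower in woodrats. Cd79a, a B cell marker with too few reads to be tested, had 5, 11 and 3 reads in woodrats and 2, 0 and 0 in lab rats. The 7 leukocyte markers in the files summed to between 5.47 and 8.17 CPM in woodrats and between 29.9 and 63.7 CPM in lab rats. The 8 basal squamous markers summed to between 5330 and 11363 CPM in woodrats and between 4963 and 7329 CPM in lab rats, so these ranges overlapped. Of these markers, 1 (Dst) was called higher and 0 lower in woodrats. The part of these markers in the clock gene values was not tested. In bulk tissue, fewer cells of a type and less RNA per cell cannot be told apart.

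Of the 10 clock genes, Per2 alone passed the FDR threshold of 0.01, and it was more abundant in woodrats, a share no larger than the 10.3% of all tested genes called in that direction. No clock gene was called lower in woodrats, against 9.71% of all tested genes. At an FDR below 0.05, 5 of the 10 were higher in woodrats, namely Clock, Per1, Per2, Cry2 and Nr1d2, and 0 were lower, against 21.0% and 18.9% of all tested genes. DESeq2 called these 5 genes at an FDR below 0.01, where it called 15.8% of the genes it tested higher in woodrats. These are also the 5 genes in which every woodrat lay above every lab rat, a separation in that direction shown by 28.8% of all tested genes. In 0 of the 10 did every lab rat lie above every woodrat, against 27.4% of all tested genes, which makes 56.2% for both directions. The median log2 fold change of the 10 genes was 0.88, against 0.03 over all tested genes, with 8 positive and 2 negative values.

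**Figure D1:**
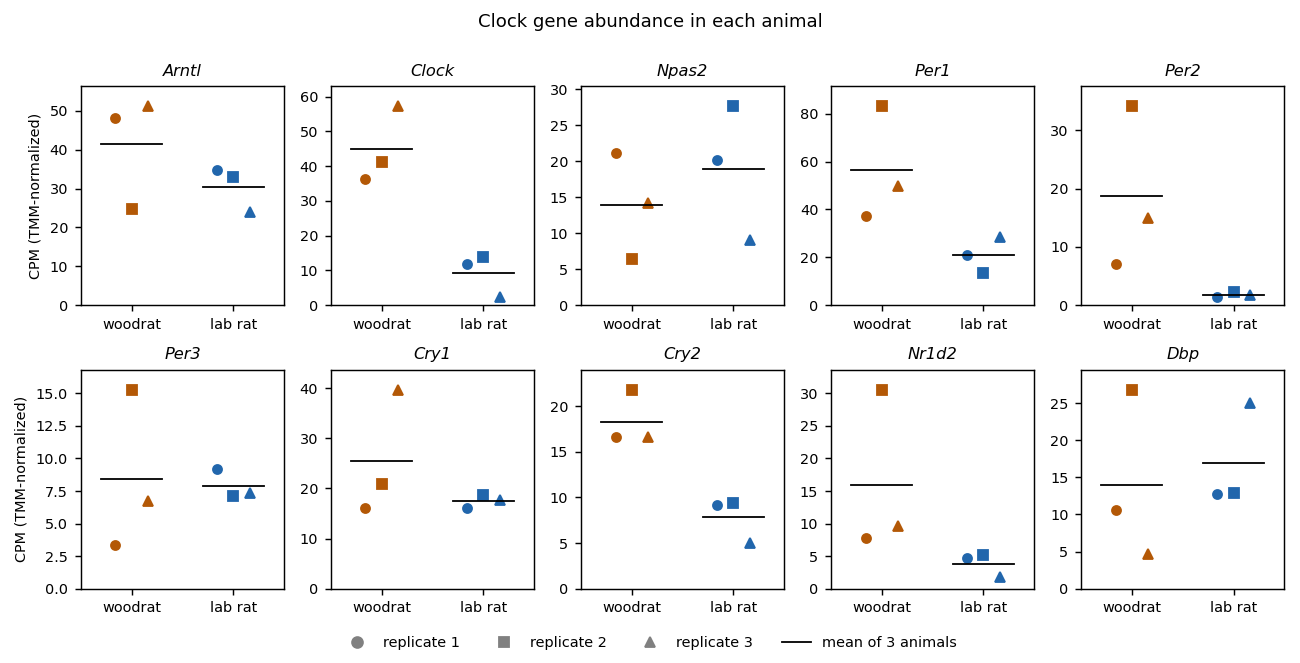
TMM-normalized CPM (linear axes from 0) of the 10 clock genes in each of 3 woodrats (orange) and 3 lab rats (blue). Symbols mark the replicate number, which was not used to pair animals across species in the main fit, and bars mark the mean. The species do not overlap for Clock, Per1, Per2, Cry2 and Nr1d2, and woodrat 2 is the highest woodrat for 6 of the 10 genes.

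Among the activators, the levels of Clock separated the species while those of Arntl and Npas2 did not. Clock (ENSMUSG00000029238.10), which encodes a DNA-binding partner of ARNTL, was present at 36.3, 41.1 and 57.2 CPM in woodrats 1, 2 and 3 and at 11.9, 13.7 and 2.31 CPM in lab rats 1, 2 and 3. All woodrats were above all lab rats, and lab rat 3, with 12 reads, was far below the others. The log2 fold change was 2.25 (standard error 0.54), or 4.77-fold, with an edgeR FDR of 0.0125 that narrowly missed the threshold. Without lab rat 3 the log2 fold change was 1.81 and the FDR 0.00773. This was the only 1 of the 6 fits that left out 1 animal in which the FDR was below 0.01. In the others it was between 0.0167 (without woodrat 1) and 0.0330 (without woodrat 2).

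Arntl (ENSMUSG00000055116.7) had 48.2, 24.8 and 51.2 CPM in woodrats and 34.7, 32.9 and 23.9 CPM in lab rats. It encodes the partner without which neither CLOCK nor NPAS2 can drive the loop. Woodrat 2 fell within the lab rat range, and the log2 fold change of 0.44 (standard error 0.32, edgeR FDR = 0.306) did not exceed the spread between animals. Npas2 (ENSMUSG00000026077.14), a paralog of Clock that can take its place, had 21.1, 6.38 and 14.2 CPM in woodrats and 20.1, 27.6 and 9.05 CPM in lab rats. These ranges overlapped broadly, and the log2 fold change was -0.46 (standard error 0.51, edgeR FDR = 0.502). The activator arm therefore held a large positive value for Clock, a small positive value for Arntl and a small negative value for Npas2, with a median of 0.44.

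Per2 showed the largest difference of the 10 genes. Per2 (ENSMUSG00000055866.9), a core inhibitor of the ARNTL and CLOCK dimer, had 7.03, 34.1 and 14.9 CPM in woodrats, from 36, 246 and 126 reads. In lab rats it had 1.37, 2.32 and 1.73 CPM, from 11, 14 and 9 reads. The lowest woodrat was thus above the highest lab rat, although the woodrats themselves differed by 4.86-fold. The log2 fold change was 3.38 (standard error 0.61), or 10.4-fold, with an edgeR FDR of 0.00388. With woodrat 2 left out it was 2.57 (FDR = 0.0114), and the FDR was also above 0.01 when a lab rat was left out, at 0.0170, 0.0135 and 0.0232 without lab rats 1, 2 and 3.

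Per1 (ENSMUSG00000020893.16), which responds quickly to hormonal and other signals besides the clock, had 37.1, 83.1 and 49.6 CPM in woodrats and 20.8, 13.4 and 28.5 CPM in lab rats. The species did not overlap, and the log2 fold change was 1.44 (standard error 0.38, edgeR FDR = 0.0188). Per3 (ENSMUSG00000028957.11), regarded as less essential to rhythm generation, had 3.32, 15.3 and 6.75 CPM in woodrats and 9.18, 7.11 and 7.32 CPM in lab rats. Lab rats were close together for Per3 while woodrats spread over 4.60-fold around them, and the log2 fold change was 0.11 (standard error 0.51, edgeR FDR = 0.881). The sign of the Per3 value depended on a single animal, since it was -0.67 without woodrat 2.

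The cryptochromes, the direct inhibitors of transcription by the ARNTL dimer, had positive values in both cases. Cry2 (ENSMUSG00000068742.10) had 16.6, 21.8 and 16.6 CPM in woodrats and 9.18, 9.43 and 5.01 CPM in lab rats. The 3 woodrats were close together and above all lab rats, and the fitted log2 difference was 1.21 (standard error 0.33, edgeR FDR = 0.0209). Cry1 (ENSMUSG00000020038.9) had 16.0, 21.0 and 39.7 CPM in woodrats and 16.0, 18.7 and 17.7 CPM in lab rats. Woodrat 1 lay among the lab rats and woodrat 3 well above them, and the log2 fold change was 0.55 (standard error 0.36, edgeR FDR = 0.248). Nr1d2 (ENSMUSG00000021775.10), which encodes the nuclear receptor REV-ERB beta, had 7.81, 30.5 and 9.59 CPM in woodrats and 4.72, 5.13 and 1.73 CPM in lab rats. Every woodrat was above every lab rat, and woodrat 2 stood apart from the other woodrats. Its log2 fold change was 2.03 (standard error 0.61, edgeR FDR = 0.0295), and 1.12 (FDR = 0.137) without woodrat 2.

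Dbp (ENSMUSG00000059824.9), a transcription factor of the PAR bZIP family that carries the rhythm to output genes, had 10.5, 26.8 and 4.62 CPM in woodrats and 12.8, 12.9 and 25.0 CPM in lab rats. The highest and the lowest of the 6 animals were both woodrats. The log2 fold change was -0.27 (standard error 0.59, edgeR FDR = 0.743), and it turned positive, to 0.16 and 0.12, without woodrat 3 and without lab rat 3.

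Taken as medians, the activator and repressor arms did not differ in opposite directions between the species. All 6 repressors had positive values, with a median log2 fold change of 1.33, and the activator median was also positive. Clock, which cycles weakly, had the largest activator value (2.25). Arntl and Npas2 had small values of opposite sign (0.44 and -0.46), and the arms were not compared without Clock. The repressor arm exceeded the activator arm by 0.71 in mean log2 fold change. This difference rested on woodrat 2, since it was 0.01 without that animal and between 0.50 and 1.11 when any other animal was left out. Within a library, the mean log2 CPM of the 6 repressors minus that of the 3 activators does not depend on how libraries are scaled to each other, apart from the prior count. It was -1.56, 0.62 and -0.95 in woodrats 1, 2 and 3 against -1.37, -1.55 and -0.33 in lab rats 1, 2 and 3. The woodrat mean was -0.63 ± 1.13 (SD, n = 3), that of lab rats was -1.08 ± 0.66 (SD, n = 3), and the animals of the 2 species overlapped. As a score over chosen genes, this index was not tested.

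**Figure D2:**
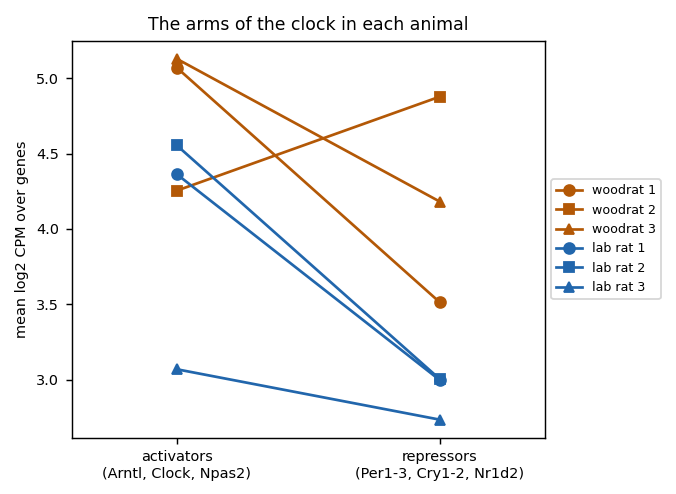
Mean log2 CPM of the 3 activators and of the 6 repressors in each animal, with a line joining both means of an animal. Woodrats (orange) lie higher than lab rats (blue) on the repressor side, from 3.51 to 4.88 against 2.73 to 3.00. The species overlap for the activators, and woodrat 2 alone has a rising line. Gene lengths were not used, so a slope is read only against the slopes of other animals.

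Pairs of genes that peak at opposite times gave differing answers. The log2 ratio of Per2 to Arntl was -2.73, 0.45 and -1.76 in woodrats against -4.40, -3.67 and -3.57 in lab rats, with no overlap and a difference of 2.53 between the means. The log2 ratio of Dbp to Arntl was -2.16, 0.11 and -3.39 in woodrats against -1.42, -1.33 and 0.07 in lab rats. Here the species overlapped, and the difference of -0.92 had the opposite sign. The log2 ratio of Clock to Arntl, the subunits of the same dimer, was -0.41, 0.72 and 0.16 in woodrats against -1.52, -1.24 and -3.21 in lab rats, which did not overlap.

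Among the woodrats, most genes of the arms were displaced in opposite directions in woodrat 2. Woodrat 2 was the highest woodrat for Per1, Per2, Per3, Cry2, Nr1d2 and Dbp and the lowest for Arntl and Npas2, whereas it was the highest woodrat for 24.5% of all tested genes and the lowest for 22.8%. In log2 CPM it lay above the woodrat mean by 1.26 for Dbp, 1.19 for Nr1d2, 1.14 for Per2 and 1.08 for Per3. For Npas2 and Arntl its deviations were -0.93 and -0.66. Clock had the sign of the other activators but a deviation of only -0.10. Cry1, at -0.18, went against the other repressors. For both genes woodrat 2 lay between the other woodrats. Woodrat 1, the animal with the highest smooth muscle marker level, was the lowest woodrat for 6 of the 10 genes, including 5 of the 6 repressors, and for 38.6% of all tested genes. The order of woodrat 2 above woodrat 3 above woodrat 1 held for Per1, Per2, Per3 and Nr1d2, or 4 of the 10 genes, against 11.8% of all tested genes. This order was read from the Per2 values of these same animals. Per2 therefore holds it by choice, and the count is a description only.

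Lab rat 3 was the lowest lab rat for all 3 activators and the highest for Dbp and Per1. It deviated by -1.55 for Clock and -0.90 for Npas2 in log2 CPM, and by 0.63 for Dbp and 0.51 for Per1. It was also the lowest lab rat for Cry2 and Nr1d2, which belong to the other arm. This library was the lowest of the lab rats for 46.1% of all tested genes and had the smallest TMM factor, 0.836. Lab rat 2, like woodrat 2, was the highest of its species for 6 of the 10 genes, against 29.6% of all tested genes. These were 2 activators (Clock and Npas2) and 4 repressors (Per2, Cry1, Cry2 and Nr1d2), so both arms were included. Highest-to-lowest ratios within a species were larger in woodrats than in lab rats for 8 of the 10 genes and for 51.3% of the 12080 tested genes with reads in every animal, the exceptions among the clock genes being Clock (1.57 in woodrats and 5.94 in lab rats) and Cry2 (1.31 and 1.88).

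**Figure D3:**
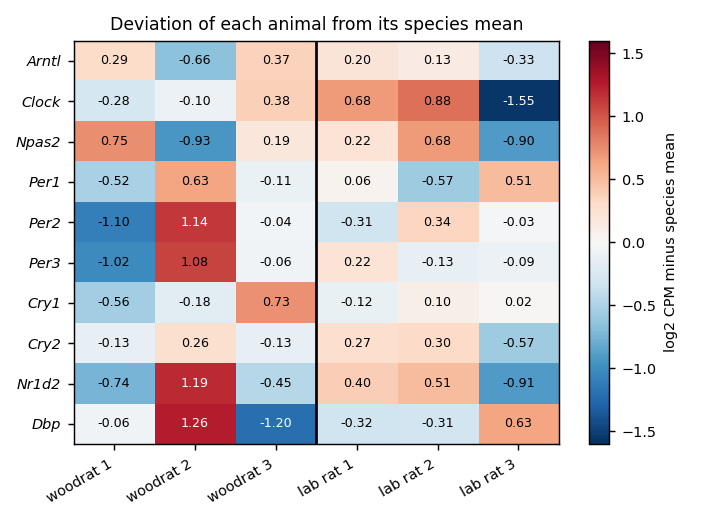
Deviation of each animal's log2 CPM from the mean of its species for the 10 clock genes (red above, blue below, values printed). Woodrat 2 is above its species mean for the Per genes, Nr1d2 and Dbp by 0.63 to 1.26 and below it for Arntl and Npas2, and lab rat 3 is lowest for the 3 activators.

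Beyond the 10 genes, 31 further genes linked to the clock were examined, and 29 of them were tested. Arntl2 and Fbxl21 had too few reads. Of the 29, 4 were called higher and 1 lower in woodrats at an FDR below 0.01, or 17.2% of them against 20.0% of all tested genes. At an FDR below 0.05, 8 were higher and 1 lower, against 21.0% and 18.9% of all tested genes. Their median log2 fold change was 0.61, against 0.03 over all tested genes.

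Of the other PAR bZIP factors, which bind the same D-box elements as DBP, Hlf was called higher in woodrats and Tef was not. Hlf (ENSMUSG00000003949.15) had 6.45, 22.6 and 8.41 CPM in woodrats and 0.745, 0.662 and 0.385 CPM in lab rats. The lab rat values rest on 6, 4 and 2 reads and are near the smallest level the libraries can show. Its log2 fold change of 4.31 (standard error 0.63, edgeR FDR = 0.00180) was the largest of all clock-linked genes tested, and the FDR was 0.0125 without lab rat 3. Tef had 4.49, 23.7 and 9.95 CPM in woodrats and 8.94, 7.61 and 7.13 CPM in lab rats, with a log2 fold change of 0.69 (edgeR FDR = 0.329). Tef thus resembled Per3 in that lab rats were alike and woodrat 2 stood above woodrats 3 and 1. Nfil3, the repressor that competes for D-boxes, had a log2 fold change of 0.67 (edgeR FDR = 0.174) with overlapping species.

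Additional repressors of E-box transcription went both ways. Ciart (ENSMUSG00000038550.9), also named Chrono, was the one clock-linked gene called lower in woodrats. It had 1.76, 5.69 and 2.72 CPM in woodrats and 21.2, 18.0 and 35.2 CPM in lab rats, and the lowest lab rat was above the highest woodrat. The log2 fold change was -2.85 (standard error 0.48, edgeR FDR = 0.00300), or 7.19-fold higher in lab rats. The FDR was 0.0128 without lab rat 3 and 0.0140 with the replicate block. Ciart is itself an E-box target that normally peaks at a similar time of day to Dbp and the Per genes, and its sign here was opposite to that of Per1 and Per2. Within woodrats, however, its order was that of Per2, with woodrat 2 the highest. Bhlhe41 (ENSMUSG00000030256.10), or DEC2, had 3.32, 3.33 and 6.87 CPM in woodrats and 1.24, 0.331 and 0.578 CPM in lab rats, and was called higher in woodrats (log2 fold change 2.57, standard error 0.58, edgeR FDR = 0.00935). Its lab rat reads numbered 10, 2 and 3, and the FDR was above 0.01 in each of the 6 fits that left out 1 animal. Bhlhe40, or DEC1, had a log2 fold change of 0.03 (edgeR FDR = 0.955).

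In the loop that sets Arntl transcription, ROR proteins activate and REV-ERB proteins repress through the same element. Nr1d1, encoding REV-ERB alpha, had 68.6, 75.9 and 45.0 CPM in woodrats and 50.1, 26.5 and 47.0 CPM in lab rats, with a log2 fold change of 0.61 (edgeR FDR = 0.156). The woodrat 3 value lay below those of lab rats 1 and 3, unlike the full separation seen for its paralog Nr1d2. Rora had 28.3, 33.3 and 54.0 CPM in woodrats and 13.3, 18.7 and 9.63 CPM in lab rats. The species did not overlap for Rora (log2 fold change 1.47, standard error 0.36, edgeR FDR = 0.0126), so the activating receptor and the repressing receptor Nr1d2 had values of the same sign. Rorb had a positive value that did not pass either threshold.

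**Figure D4:**
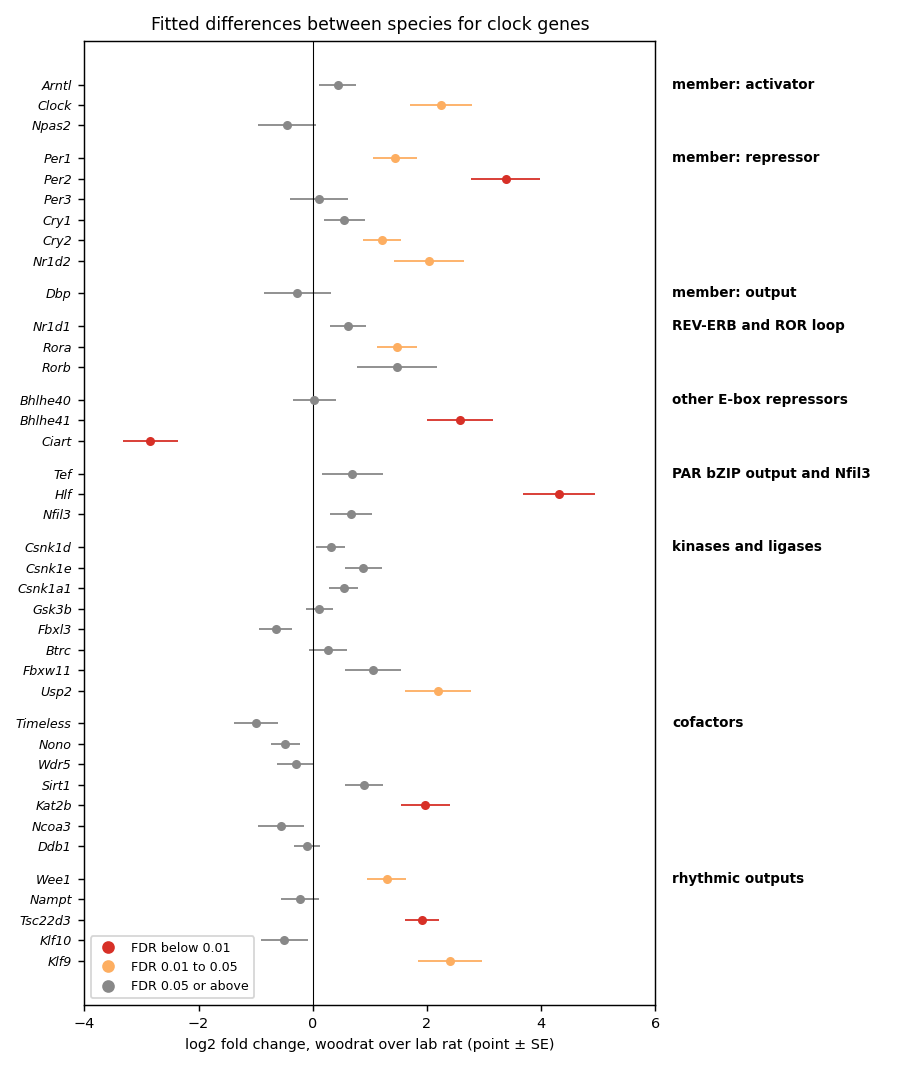
Fitted log2 fold change of woodrat over lab rat, with its standard error, for the 10 clock genes and the 29 further clock-linked genes tested, grouped by role and colored by FDR. Per2, Hlf, Bhlhe41, Kat2b and Tsc22d3 are called above 0 and Ciart alone below 0. The 6 repressors lie above 0, as do the activators Clock and Arntl, while the activator Npas2 lies below 0.

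Of the 8 tested kinases and ubiquitin pathway genes that control the stability of PER and CRY, 0 passed the edgeR FDR of 0.01, and 1, Usp2, passed 0.05. Usp2, a deubiquitinase whose transcript is strongly rhythmic, had 15.8, 34.8 and 60.8 CPM in woodrats and 14.3, 4.80 and 5.01 CPM in lab rats (log2 fold change 2.19, edgeR FDR = 0.0188). Of the 7 cofactors, Kat2b, an acetyltransferase, was called higher in woodrats. It had 53.1, 48.7 and 50.3 CPM in woodrats and 16.3, 17.5 and 4.82 CPM in lab rats (log2 fold change 1.97, edgeR FDR = 0.00829). The FDR stayed below 0.01 in 1 of the 6 fits that left out 1 animal, the one without lab rat 3, and was between 0.0115 and 0.0269 in the others. It was 0.0280 with total counts only and 0.0210 with the replicate block. As with Clock, lab rat 3 was the lowest animal. Wee1, a cell cycle kinase and E-box target, had a log2 fold change of 1.30 (edgeR FDR = 0.0188).

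Per1 and Per2 are also induced by glucocorticoid hormones. Of the 9 genes of a glucocorticoid and immediate-early response list, which includes Per1, 2 were called higher and 0 lower in woodrats, a share of 22.2% against 20.0% of all tested genes. Fkbp5 and Zbtb16 were the called genes, and Tsc22d3 and Klf9, which the hormones also induce, come from the list of rhythmic outputs and were set beside them after their values were seen. Tsc22d3, also named Gilz, had 24.6, 43.0 and 43.5 CPM in woodrats and 10.2, 9.10 and 10.2 CPM in lab rats, and its log2 fold change was 1.91 (standard error 0.30, edgeR FDR = 0.00244). The FDR was 0.0138, 0.0117 and 0.0127 without woodrat 2, lab rat 1 and lab rat 2, and 0.0154 with the replicate block. Klf9 had 10.9, 32.2 and 16.5 CPM in woodrats and 5.09, 4.63 and 1.35 CPM in lab rats, and its log2 fold change of 2.40 (standard error 0.56, edgeR FDR = 0.0106) missed the threshold. Fkbp5, a co-chaperone of the glucocorticoid receptor, had 17.6, 135 and 73.9 CPM in woodrats and 4.84, 2.32 and 1.93 CPM in lab rats (log2 fold change 4.60, edgeR FDR = 0.00264). Zbtb16 had 13.1, 40.3 and 23.9 CPM in woodrats and 0.993, 1.16 and 0.193 CPM in lab rats (log2 fold change 4.96, edgeR FDR = 0.00102). Klf9, Fkbp5 and Zbtb16 each had the woodrat order of Per1 and Per2, with woodrat 2 highest and woodrat 1 lowest. This order held for 3 of the 9 genes of the response list, Per1 among them, against 11.8% of all tested genes. Because the order was read from Per2 and was already known for Per1, the Per1 entry is not a separate observation. The count is a description only. Dusp1 (42.8, 18.2 and 14.3 CPM in woodrats 1, 2 and 3), Fos and Nr4a1 were instead highest in woodrat 1. Sgk1, Egr1, Junb and, narrowly, Tsc22d3 were highest in woodrat 3. Not all genes of the response list had a positive sign. Sgk1 had a log2 fold change of -0.83 (edgeR FDR = 0.351), and Junb had -0.92 (edgeR FDR = 0.0218). The part of this response in the Per1 and Per2 values was not tested.

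**Figure D5:**
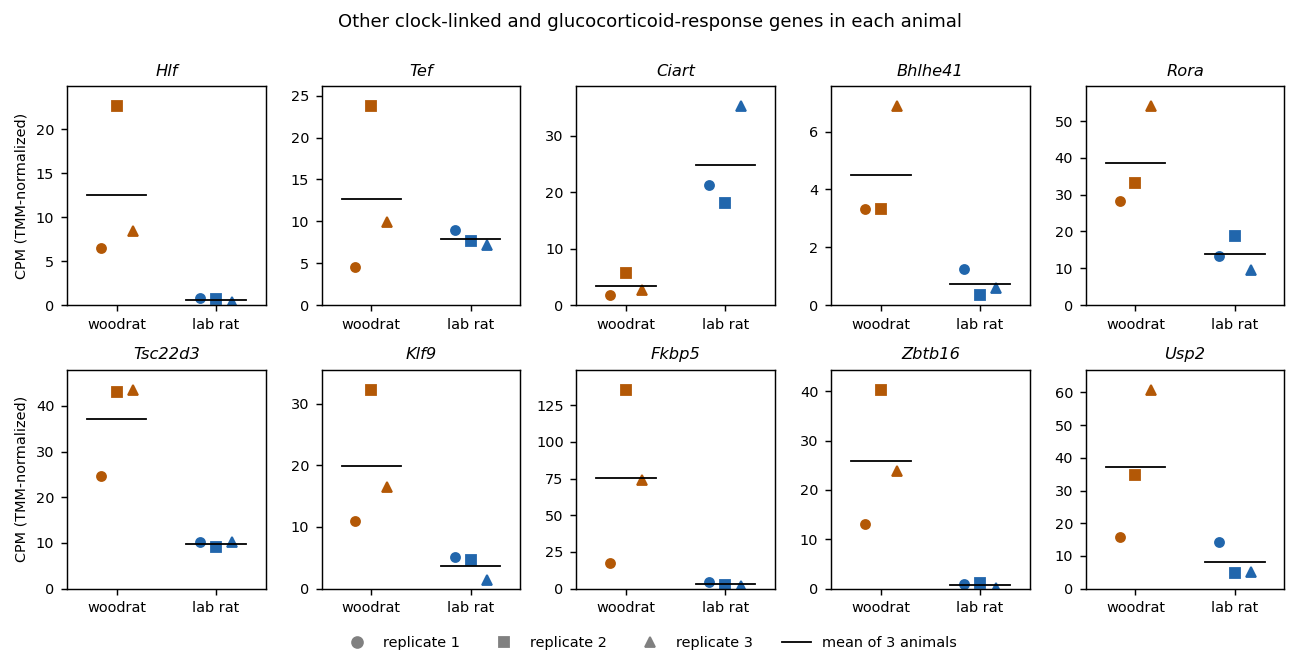
TMM-normalized CPM (linear axes from 0) of 8 further clock-linked genes and of the glucocorticoid-response genes Fkbp5 and Zbtb16 in each animal, with symbols for the replicate number and bars for the mean. Ciart is the one panel in which all lab rats are above all woodrats, and woodrat 2 is the highest woodrat for Hlf, Tef, Ciart, Klf9, Fkbp5 and Zbtb16.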

How the data were processed

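The stranded mRNA libraries were trimmed by the authors with Trimmomatic, read pairs that overlapped were joined with FLASH, and cross_match placed the reads of either species on coding transcripts of the mouse (GENCODE). The deposited values are raw counts of uniquely assigned reads per mouse gene, one file for each animal. Tool versions are not given in the sources used here. Woodrat and lab rat reads can differ in how well they align to a given mouse gene, which can shift a gene's difference between species but not its differences within a species. The files hold 0 genes without woodrat reads and 809 without lab rat reads. Species and replicate numbers came from the sample titles. In R 4.3.3 with edgeR 4.0.16, a gene was tested where 3 or more animals had 1 CPM or more, which left 12603 genes. Scaling was by TMM, and the quasi-likelihood F-test had species as its only term, a prior count of 0.125 and the dispersion method that preceded edgeR 4. The standard error is the log2 fold change divided by the square root of F. Values per animal on the log2 scale are log2 CPM with a prior count of 2. No pair of animals within a species agreed within sampling noise (chi-square per degree of freedom from 10.1 to 121).

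The clock genes and all lists were chosen with earlier results of these data known, and 1 further gene of the clock-linked lists is not reported here. Genes named are the 10 clock genes, the further clock-linked genes at an FDR below 0.05, Nr1d1, Rora, Nfil3, Bhlhe40 and Ciart, and the 5 genes most alike to the clock gene of lowest FDR. Tef, Rorb, Arntl2 and Fbxl21, and the genes of the glucocorticoid list, were named after their values were seen. The fits were tested on simulated counts. Alternatives were other filters, scalings, edgeR settings, DESeq2 1.42.0, the replicate number as a block, an FDR of 0.05, other arm members and each animal left out. Gene lengths were not used, so the sign of a ratio or difference between genes in 1 animal has no meaning by itself. Such ratios and differences are only compared between animals. The edgeR p-values set the difference between the species against an estimate of the spread between 3 animals of each species. That estimate also draws on the other tested genes.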

Additional observations from a re-analysis of the deposited data

How the results depend on the processing

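The activator median, the repressor median and the difference between the arms moved by less than the SD over animals, pooled over the species, of the arm means and of their difference (0.67, 0.49 and 0.92) under every alternative run, but the difference was 0.01 without woodrat 2. For the activator median (0.44) and the difference (0.71) this SD was larger than the value itself, so the limit was wide and does not show stability. In the 6 fits without 1 animal the activator median, the repressor median and the difference ran from 0.25 to 0.66, from 1.02 to 1.47 and from 0.01 to 1.11. The difference was 0.32 with Dbp and the wider E-box targets counted as repressors and 0.99 without the Cry genes. The number of clock genes called was 2 without a filter, 5 with DESeq2 and 5 at an FDR below 0.05, all higher in woodrats, and from 0 to 1 in the fits that left out 1 animal. It was 0 without woodrat 2, lab rat 1 or lab rat 2. For the further clock-linked genes it was 3 with total counts only, 9 with DESeq2, 9 at an FDR below 0.05 and from 2 to 5 with 1 animal left out (2 without woodrat 2, lab rat 1, lab rat 2 or lab rat 3, and 3 without woodrat 3). Over all genes it was 3916 with DESeq2, 5026 at an FDR below 0.05 and from 898 to 2626 with 1 animal left out. With the replicate number as a block, 716 genes, 1 further clock-linked gene and 1 clock gene were called. Deviations of same-numbered animals had a mean correlation of -0.22 over 3 pairs, and those of differently numbered animals 0.11 over 6 pairs. So few pairs, with deviations taken within 3 animals, cannot show whether the numbers mark a shared step of processing. Of the 22 single genes refitted (the 10 clock genes and 12 of the further clock-linked genes), 3 changed sign. Per3 turned to -0.12 with the replicate block, and without 1 animal it ran from -0.67 (without woodrat 2) to 0.47. Dbp turned to 0.16 and 0.12 without woodrat 3 and lab rat 3, in a range from -1.21 to 0.16. Bhlhe40 turned to -0.018 with total counts, to -0.0020 with the block, and to -0.30 and -0.16 without woodrat 2 and lab rat 3, in a range from -0.30 to 0.27. The causes were not tested. At this depth, the lab rat values of Per2, Hlf and Bhlhe41 rest on few reads.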

Other observations

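Over the 6 animals, the 5 genes outside the clock lists whose log2 CPM was most like that of Per2 were Figf, Blnk, Ido1, Tpd52l1 and Col19a1, with Pearson r from 0.986 to 0.996. The correlation is a description over 6 animals of 2 species and is set largely by the difference between the species. Blnk, an adaptor of B cell receptor signaling, had 8.40, 36.2 and 24.5 CPM in woodrats and 2.36, 2.98 and 2.12 CPM in lab rats. Tpd52l1 had 21.7, 51.4 and 34.8 CPM in woodrats and 12.2, 11.6 and 12.7 CPM in lab rats. Ido1, which encodes a tryptophan-degrading enzyme, had 1.17, 5.27 and 2.01 CPM in woodrats and 0 reads in every lab rat. In all 5 genes woodrat 2 was the highest animal and woodrat 1 the lowest woodrat, as for Per2. This order follows from choosing the genes by their likeness to Per2 and is not a separate observation.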
